A study of Mus musculus with 6 samples.

Results

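The 9 genes described here are expressed mainly by inflammatory monocytes, macrophages and neutrophils: Il1b, Acod1, Cd14, Thbs1, Tlr2, Lyz2, S100a8, S100a9 and Csf3r. They were read in CD4+ CD45+ cells of the mouse lung, sorted against CD11b and against the macrophage surface protein encoded by Adgre1, a gate that leaves out cells bearing these myeloid proteins. The genes were chosen from the signals of these same arrays, with both the difference between treatments and the contrast between replicate numbers known. Their values are therefore given as a description, and no p-value below is support for a pattern in them. Each gene was represented by its only probe set with a single gene symbol, so all 9 of 9 were found among the 22180 genes measured.

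The samples were 3 arrays from wild-type mice given the airway allergen house dust mite (HDM) and 3 from wild-type mice given PBS, a buffered saline. All 6 came from digested whole lung, with 1 array per sample, numbered 1 to 3 in each group as biological replicates. The sources used here do not give the number of mice per sample, their age, the doses or what the numbers stand for. The p-values thus measure only the spread between these samples. RNA was hybridised to an Affymetrix whole-transcript mouse array, and the deposited values are log2 signals per probe set, whose median per array lay between 6.57 and 6.64. The arrays matched their sort label for T cells: Cd4 stood between 12.57 and 12.73 in HDM arrays and between 12.47 and 12.60 in PBS arrays, and the 14 measured T cell identity genes had mean signals between 11.63 and 11.71 in HDM arrays and between 11.52 and 11.64 in PBS arrays.

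Monocytes and neutrophils detect microbial products through CD14, which hands lipopolysaccharide and lipoproteins to Toll-like receptors such as the one encoded by Tlr2. Signalling through these receptors switches on a fast gene programme that includes Il1b, the precursor of the fever cytokine interleukin 1 beta, and Acod1, the mitochondrial enzyme that makes itaconate. S100a8 and S100a9 encode the calcium-binding chains of calprotectin, the abundant protein of neutrophil cytosol, and Lyz2 encodes the lysozyme of myeloid cells. Csf3r is the receptor for granulocyte colony-stimulating factor, which drives neutrophil production, and Thbs1 encodes thrombospondin, an adhesive glycoprotein released by platelets and activated monocytes. CD4 T cells are not known as a main source of these transcripts.

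Upstream sequences are shown for 3 of the genes, Il1b and Acod1 because they moved together across the arrays and S100a8 as the calprotectin gene that followed them most closely. Windows were read for 7 of the 9 genes, matched by symbol in the RefSeq promoter table of build GRCm38.p6, and none were read for Cd14 and Thbs1. Each line gives the 250 bases before the listed gene start, 5′ to 3′ on the gene's strand, at chr2:129371140-129371389 (minus strand) for Il1b, chr14:103046762-103047011 (plus strand) for Acod1 and chr3:90668821-90669070 (plus strand) for S100a8. Capitals mark the motifs found by a search of both strands.
Il1b: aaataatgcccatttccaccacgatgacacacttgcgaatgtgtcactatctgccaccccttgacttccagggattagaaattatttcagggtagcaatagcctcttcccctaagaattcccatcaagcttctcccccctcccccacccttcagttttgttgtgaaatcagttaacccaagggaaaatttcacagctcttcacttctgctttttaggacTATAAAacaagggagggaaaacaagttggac
Acod1: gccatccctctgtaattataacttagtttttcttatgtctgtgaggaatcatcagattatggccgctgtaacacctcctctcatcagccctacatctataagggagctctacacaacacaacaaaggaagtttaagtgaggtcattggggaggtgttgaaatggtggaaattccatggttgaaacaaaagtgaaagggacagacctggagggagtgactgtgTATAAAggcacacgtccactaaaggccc
S100a8: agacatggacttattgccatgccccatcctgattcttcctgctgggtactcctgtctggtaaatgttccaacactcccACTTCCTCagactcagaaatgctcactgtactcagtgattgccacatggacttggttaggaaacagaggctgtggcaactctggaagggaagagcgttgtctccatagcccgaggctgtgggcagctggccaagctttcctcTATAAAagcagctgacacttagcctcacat

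The search covered the letters TATAAA of the promoter element bound by the general transcription machinery. It also covered the letters TGANTCA for the factor AP-1, the letters TTGCNNAA for the C/EBP family, the letters GAGGAAGT for the myeloid factor PU.1 and the κB consensus. The first of these began 31 bases before the start of Il1b, 28 before that of Acod1 and 30 before that of S100a8. Tlr2, Lyz2, S100a9 and Csf3r, which are not printed, did not hold it, and Lyz2 held none of the motifs searched. Among 32841 upstream windows of the same length, 12.4% held TATAAA. S100a8 also held the PU.1 letters on the opposite strand, 172 bases before its start, a match present in 2.44% of windows. Of the genes not printed, Tlr2 and Csf3r held the κB consensus (7.25% of windows) and S100a9 the C/EBP letters (9.57%), AP-1 letters (6.75%) were found in none of the 7, and no match overlapped one of another motif. Gene starts here are those of the promoter table. By the RefSeq gene spans, the Csf3r window and the κB match of Tlr2 lie inside their genes, and the Il1b window overlaps its gene in part. These matches describe letters only.

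Thbs1, Il1b and Acod1, which encode an adhesive glycoprotein, a cytokine and an enzyme of activated monocytes, were high in both arrays numbered 3 and low in the other 4. Thbs1 stood at 9.97 in HDM replicate 3, against 7.31 and 7.09 in HDM replicates 1 and 2. In the PBS group it stood at 10.35 in replicate 3, against 6.67 and 7.36 in replicates 1 and 2. The difference of replicate 3 from the mean of the other 2 arrays was thus 2.77 (6.80-fold) in the HDM group and 3.34 (10.1-fold) in the PBS group.

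Il1b was also highest in the arrays numbered 3. Its signal was 9.998 in HDM replicate 3, against 7.46 and 7.79 in HDM replicates 1 and 2, and 10.68 in PBS replicate 3, against 7.29 and 8.02 in PBS replicates 1 and 2. The array numbered 3 was 5.17-fold higher than the mean of the other arrays in the HDM group and 8.13-fold higher in the PBS group. Acod1 gave the most even picture of the 3: it stood at 9.59 in HDM replicate 3, against 7.35 and 7.28 in the other HDM arrays, and at 9.72 in PBS replicate 3, against 7.46 and 7.56 in the other PBS arrays. The 4 arrays numbered 1 and 2 lay within 0.27 of each other for Acod1, within 0.69 for Thbs1 and within 0.73 for Il1b, and none of them reached an array numbered 3.

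The 2 sensing receptors differed from each other in size. Cd14 stood at 8.03 in HDM replicate 3, against 6.70 and 6.48 in HDM replicates 1 and 2. It stood at 8.37 in PBS replicate 3, against 6.54 and 6.72 in PBS replicates 1 and 2, which made the arrays numbered 3 higher by 1.45 in HDM and by 1.74 in PBS. Tlr2 was nearly level: 7.92 in HDM replicate 3, against 7.51 and 7.56 in the other HDM arrays, and 7.93 in PBS replicate 3, against 7.63 and 7.76 in the other PBS arrays. For both receptors the array numbered 3 was the highest of its group, by far for Cd14 and by a small step for Tlr2.

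Csf3r and S100a8, which like S100a9 are tied to neutrophils, lay between these extremes. Csf3r stood at 7.83 in HDM replicate 3, against 7.08 and 6.79 in HDM replicates 1 and 2, and at 7.95 in PBS replicate 3, against 6.91 and 7.11 in PBS replicates 1 and 2. S100a8 stood at 6.79 in HDM replicate 3, against 5.43 and 5.87 in HDM replicates 1 and 2, and at 6.94 in PBS replicate 3, against 5.99 and 6.06 in PBS replicates 1 and 2. Both had the array numbered 3 highest in the 2 groups, about 2-fold above the mean of the others: 1.87-fold in HDM and 1.92-fold in PBS for Csf3r, and 2.21-fold in HDM and 1.89-fold in PBS for S100a8.

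S100a9, whose protein pairs with that of S100a8, did not have the array numbered 3 highest in both groups. Its signal was 6.12, 6.61 and 6.45 in HDM replicates 1, 2 and 3, and 6.18, 6.21 and 6.89 in PBS replicates 1, 2 and 3. Replicate 3 was the highest PBS array, but HDM replicate 2 was the highest HDM array. Signals of S100a8 and S100a9 were dim, and their means over the 6 arrays lay under 6.79, the 95th percentile of 1394 olfactory and vomeronasal receptor genes (median 4.53), which lymphoid cells do not use. No detection call is given and probe sets differ in brightness, so this is a rough guide and the values of these 2 genes are the least certain of the 9.

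Lyz2 was bright in every array and followed a different pattern. It stood at 11.36, 10.78 and 11.40 in HDM replicates 1, 2 and 3, and at 10.56, 10.69 and 11.03 in PBS replicates 1, 2 and 3. HDM replicates 1 and 3 were the highest arrays, HDM replicate 2 lay inside the PBS range, and the arrays numbered 3 exceeded the mean of the others by only 0.33 in HDM and 0.41 in PBS. In sorted bulk samples, more cells of a type and more RNA per cell cannot be told apart for this or any other gene here.

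**Figure D1:**
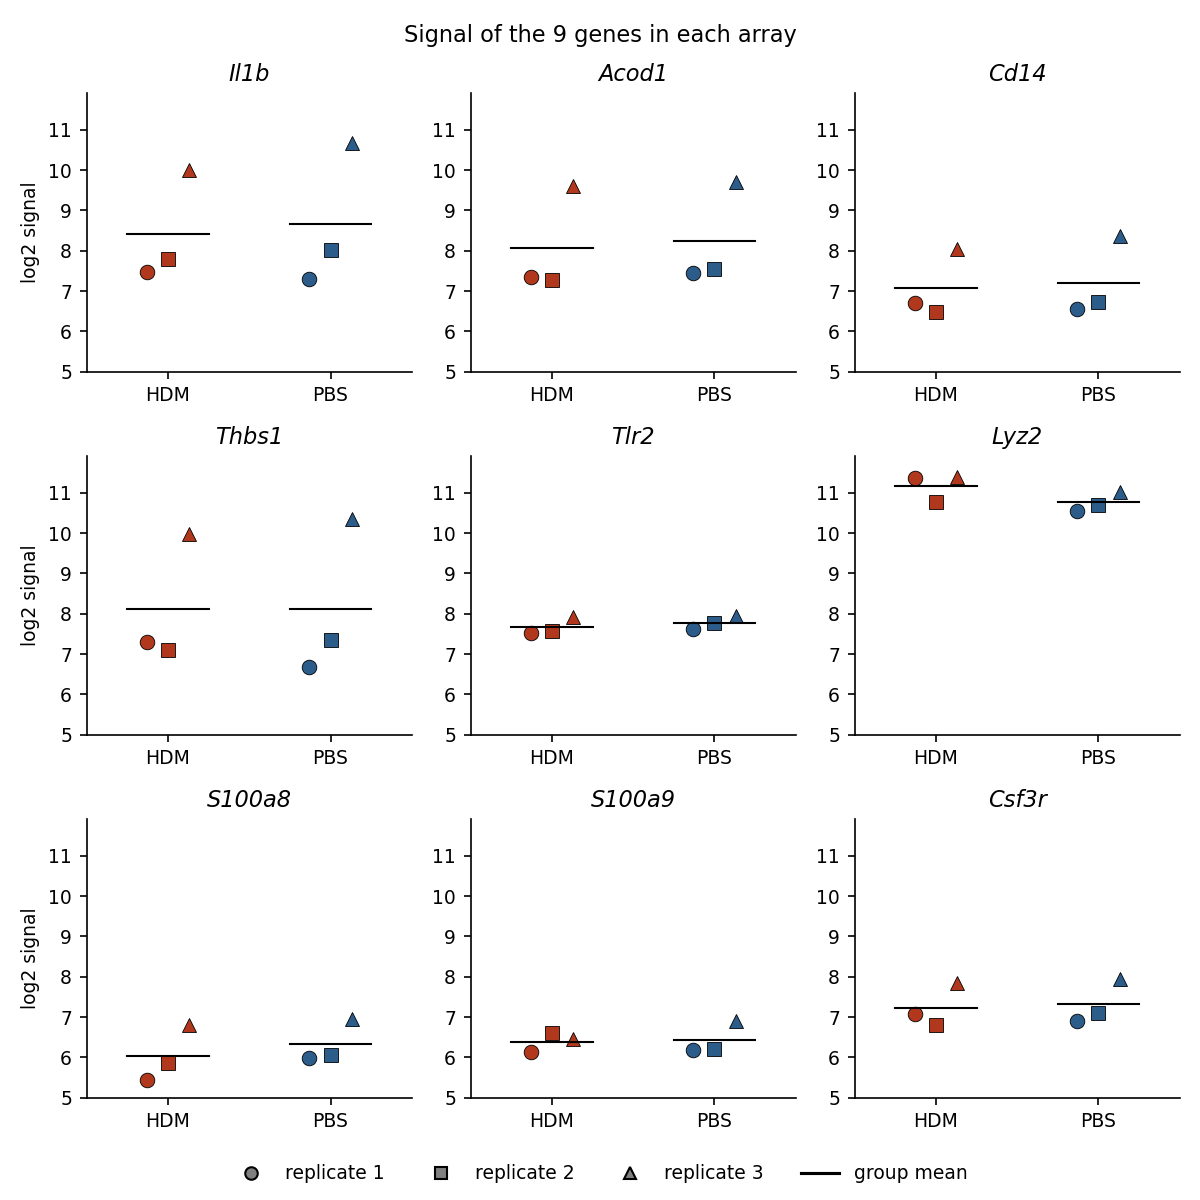
Log2 signal of the 9 genes in each array, with HDM on the left and PBS on the right of each panel; circles, squares and triangles are replicates 1, 2 and 3 and the line is the group mean. The triangles stand well above the rest for Thbs1, Il1b, Acod1 and Cd14, and close to the rest for Tlr2, Lyz2 and S100a9.

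The contrast between replicate numbers sums up these values, with the HDM and PBS arrays of each number averaged. Number 3 exceeded the mean of numbers 1 and 2 by 3.05 for Thbs1, 2.70 for Il1b, 2.24 for Acod1, 1.59 for Cd14, 1.03 for S100a8 and 0.92 for Csf3r. For S100a9, Lyz2 and Tlr2 the excess was 0.39, 0.37 and 0.31. Numbers 1 and 2 were close, and their largest separation among the 9 genes was in Il1b, 0.53 higher in number 2. The median excess of number 3 was 1.03 over the 9 genes, against -0.01 over all 22180 genes.

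By the size of this excess Thbs1 ranked 1, Il1b 2, Acod1 4 and Cd14 12 among all genes, while Tlr2 ranked 1590. Number 3 was the highest number, with number means at least 1 apart on the log2 scale, for 5 of the 9 genes (Thbs1, Il1b, Acod1, Cd14 and S100a8) and for 0.861% of all genes. Just under that separation lay Csf3r at 0.94, with S100a8 just above it at 1.16. The array numbered 3 was the highest in both groups for 8 of the 9 genes, S100a9 being the exception, and for 19.1% of all genes. This contrast was known when the genes were chosen, so the counts describe them and are no evidence about them.

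**Figure D2:**
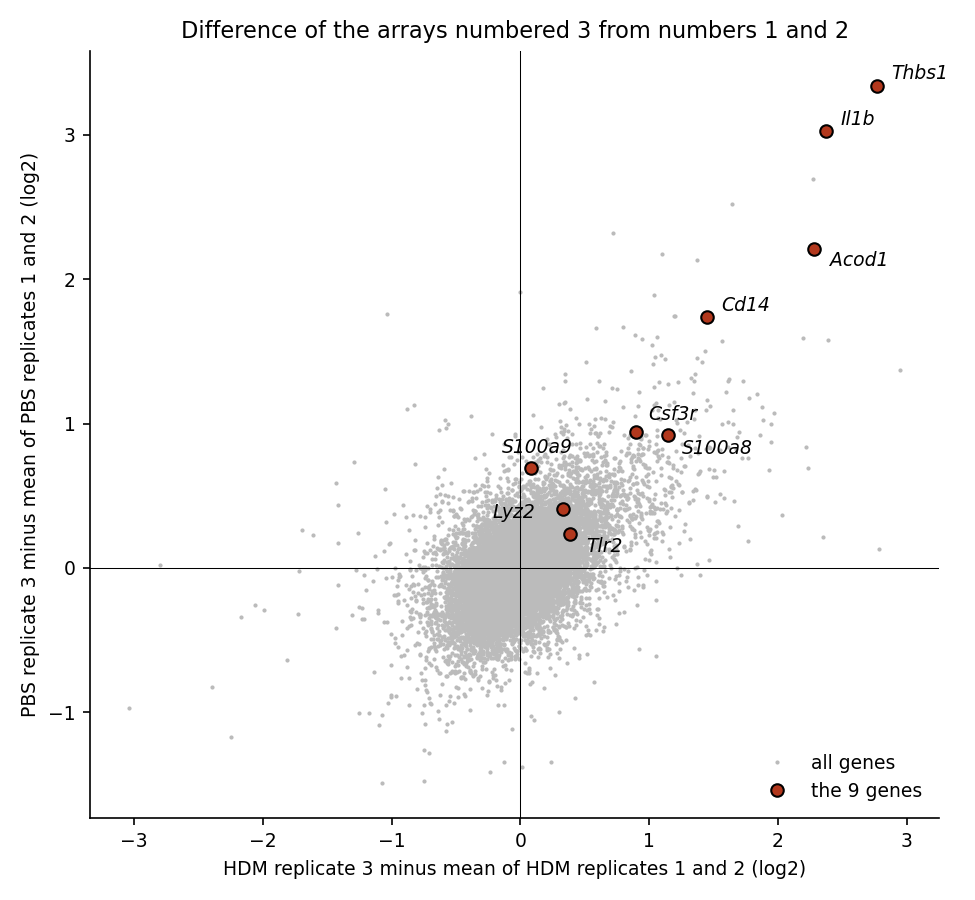
Each grey point is a gene, with the difference of HDM replicate 3 from the mean of HDM replicates 1 and 2 on the horizontal axis and the same for PBS on the vertical axis, both in log2 units; red points are the 9 genes. Thbs1 (2.77 and 3.34), Il1b (2.37 and 3.02) and Acod1 (2.28 and 2.21) lie at the upper right edge of the cloud, and Tlr2 and Lyz2 inside it.

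The treatments were compared to see which transcripts of the sorted cells differ after exposure to the allergen. None of the 9 genes passed limma's test at an adjusted p of 0.05 over all genes, which 3.95% of all genes did. At an unadjusted p below 0.05 there were also 0 of the 9, and the share of all genes at that unadjusted threshold was not counted. For 0 of the 9 genes did the HDM values all lie on one side of the PBS values, against 22.6% of all genes. Mean signals were below PBS in HDM for 8 of the 9, by a median of 0.11 over the 9 genes (median difference -0.11, against -0.01 over all genes). Missing the threshold does not show that the groups were alike, since the intervals were wide.

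For the genes that stood out in the arrays numbered 3, the spread within each group set that width. Thbs1 averaged 8.12 ± 1.60 in HDM and 8.13 ± 1.96 in PBS (SD, n = 3 each), a difference of 0.00 with a 95% interval from -2.41 to 2.41. Il1b averaged 8.42 ± 1.38 in HDM and 8.66 ± 1.78 in PBS, a difference of -0.24 with an interval from -2.39 to 1.90. Acod1 averaged 8.08 ± 1.32 in HDM and 8.24 ± 1.28 in PBS (-0.17, interval -1.92 to 1.58). Cd14 averaged 7.07 ± 0.84 in HDM and 7.21 ± 1.01 in PBS (-0.14, interval -1.40 to 1.12). A difference of 1 on the log2 scale in either direction thus lies inside the interval of each of these 4 genes.

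With the replicate number as a block the intervals narrowed and again 0 of the 9 genes passed, while 12.0% of all genes did. The sources do not say that arrays sharing a number are pairs, so the block values are an alternative reading. The interval became -0.44 to 0.44 for Thbs1, -0.60 to 0.11 for Il1b, -0.36 to 0.03 for Acod1 and -0.41 to 0.13 for Cd14. Within the pairs of arrays numbered 1, 2 and 3, Acod1 differed by -0.11, -0.27 and -0.12, Il1b by 0.17, -0.22 and -0.68, and Thbs1 by 0.64, -0.26 and -0.39. Acod1, Tlr2 and S100a8 were lower in the HDM array of every pair, and Lyz2 was higher in every pair.

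Lyz2 had the largest difference of the 9 genes. It averaged 11.18 ± 0.35 in HDM and 10.76 ± 0.24 in PBS, a difference of 0.42 (1.34-fold, interval -0.01 to 0.85, adjusted p = 0.293, limma), and of 0.80, 0.09 and 0.37 within the pairs. Its block interval ran from 0.13 to 0.70 (adjusted p = 0.0709, limma with the block). S100a8 averaged 6.03 ± 0.70 in HDM and 6.33 ± 0.53 in PBS, a difference of -0.30 (interval -1.15 to 0.55, adjusted p = 0.756), with a block interval from -0.56 to -0.04 (adjusted p = 0.138). These 2 genes were the only ones of the 9 with an unadjusted p below 0.05 in the block fit, 0.0105 for Lyz2 and 0.0299 for S100a8. The share of all genes at that unadjusted threshold was not counted, so these 2 values do not set the genes apart.

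The remaining differences were small: -0.11 for Tlr2 (interval -0.43 to 0.21), -0.09 for Csf3r (-0.84 to 0.67) and -0.03 for S100a9 (-0.52 to 0.45). Without both arrays numbered 3, again 0 of the 9 genes passed, and Lyz2 differed by 0.44 (SE 0.16, adjusted p = 0.138), S100a8 by -0.37 (SE 0.16, adjusted p = 0.199) and Il1b by -0.03 (SE 0.23). Single arrays decided the sign for most genes. Without PBS replicate 3, the difference was 1.11 for Thbs1, 0.76 for Il1b, 0.57 for Acod1, 0.44 for Cd14, 0.22 for Csf3r, 0.20 for S100a9 and 0.0083 for S100a8, while without HDM replicate 3 it was -0.93 for Thbs1, -1.03 for Il1b, -0.93 for Acod1 and -0.62 for Cd14.

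**Figure D3:**
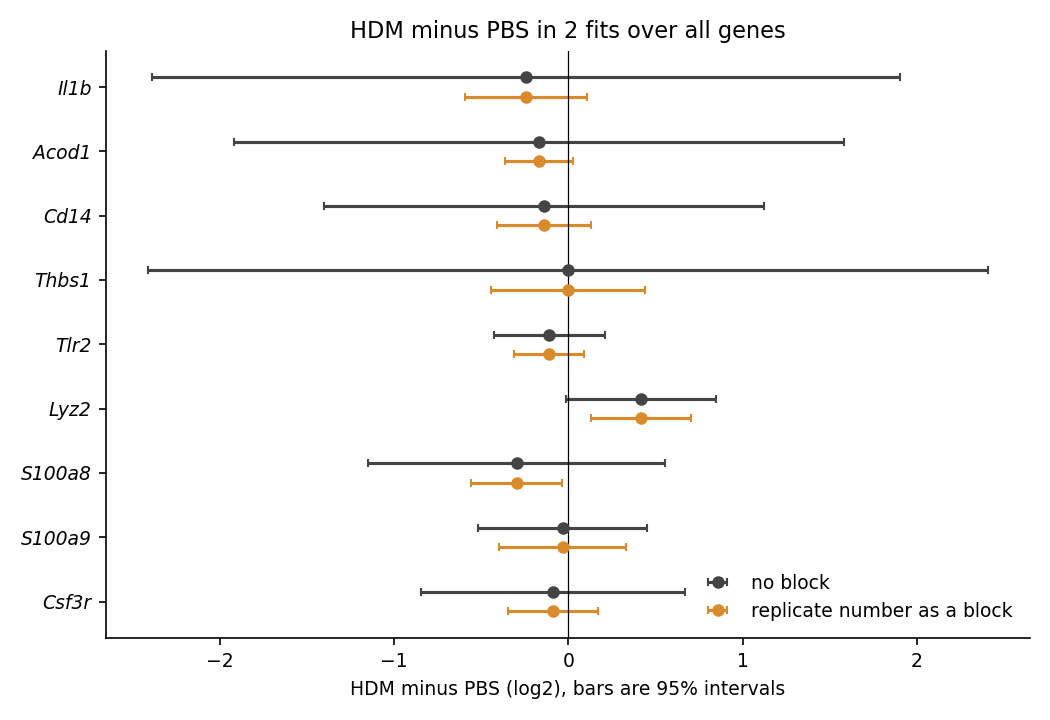
HDM minus PBS in log2 units for the 9 genes, with 95% intervals from the fit without a block (grey) and with the replicate number as a block (orange). Points are the same in both fits, and the interval of Il1b is -2.39 to 1.90 without the block and -0.60 to 0.11 with it. The orange intervals of Lyz2 and S100a8 leave out 0, although neither gene passed after adjustment over all genes.

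The 8 genes whose signals ran most like the mean of the 9 over the 6 arrays were Plek, Mmp8, Ngp, Mxi1, Ptgs2, Kif23, Mmp2 and Trem1, with Pearson r between 0.978 and 0.993. These r values rest on the 2 arrays numbered 3, which stand apart, and carry no p. Ptgs2, the inducible enzyme of prostaglandin synthesis, stood at 9.19 in HDM replicate 3, against 6.80 and 7.04 in the other HDM arrays, and at 10.04 in PBS replicate 3, against 7.07 and 7.63 in the other PBS arrays. Trem1, a receptor that amplifies inflammation in neutrophils and monocytes, stood at 8.46 in HDM replicate 3, against 6.80 and 6.97, and at 8.82 in PBS replicate 3, against 7.14 and 7.36. Ngp, a neutrophil granule protein, stood at 6.31 in HDM replicate 3, against 5.18 and 5.05, and at 6.79 in PBS replicate 3, against 4.998 and 5.09. Mmp8, the neutrophil collagenase, had number 3 higher by 0.84, and Plek, the platelet and leukocyte protein pleckstrin, by 1.26.

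Ptgs2 and Trem1 passed the test between treatments with the block and not without it. The difference was -0.57 for Ptgs2 (adjusted p = 0.807 without and 0.0245 with the block, limma) and -0.36 for Trem1 (adjusted p = 0.804 without and 0.0315 with the block). Both were lower in the HDM array of all 3 pairs. Genes of the lists below also went the other way with the block, in which 12.0% of all genes passed. Of 34 neutrophil genes, 4 were higher in HDM and 1 was lower, and of 32 inflammatory targets 3 were higher and 3 lower. Il1r2, of the neutrophil list, was higher by 1.37 (adjusted p = 0.180 without and 0.00194 with the block, limma). Mxi1, a Myc antagonist, Kif23, a kinesin of cell division, and Mmp2, a gelatinase of stromal cells, are not particular to neutrophils, and number 3 exceeded numbers 1 and 2 by 0.99, 1.12 and 0.87 for them.

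Gene lists from general knowledge, written with earlier results of these data known, describe the number contrast beyond the 9 genes. The 9 genes were left out of these counts, which describe the lists and are no evidence about them. Of 34 measured neutrophil genes, 8 had number 3 highest with number means at least 1 apart: Ngp, Lcn2, Retnlg, Il1r2, Trem1, Clec4d, Clec4e and Ifitm6. For Ngp, Retnlg, Clec4d and Ifitm6 the HDM and PBS means both lay under 6.79, the rough guide for dim signals. Of 30 monocyte genes, 6 did, among them Fcer1g, the shared signalling chain of Fc receptors, and Treml4, a receptor of patrolling monocytes. Of 32 inflammatory targets, 6 did: Il1a, Cxcl10, Ccl3, Ptgs2, Nlrp3 and Plaur. The individual genes in this paragraph and the next were picked for these values. The median excess of number 3 was 0.43 over the neutrophil list, 0.43 over the monocyte list and 0.42 over the inflammatory list.

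Clec4e, the receptor Mincle, stood at 8.07 in HDM replicate 3, against 6.29 and 6.56 in HDM replicates 1 and 2, and at 9.33 in PBS replicate 3, against 6.38 and 7.24 in PBS replicates 1 and 2. Nlrp3, the sensor of the inflammasome that matures interleukin 1 beta, stood at 7.26 in HDM replicate 3, against 6.24 and 6.16, and at 8.02 in PBS replicate 3, against 5.96 and 6.88. The excess of number 3 was 2.08 for Clec4e and 1.33 for Nlrp3. For 2 genes that define neutrophils it was 0.34 (Ly6g) and 0.31 (Cxcr2), beside a median of 0.43 over the neutrophil list. Of that list's 34 genes, the 8 named above had more, among them Lcn2 at 1.02 and Trem1 at 1.57. Ly6g stood at 5.15, 4.87 and 5.14 in HDM replicates 1, 2 and 3 and at 5.22, 4.74 and 5.52 in PBS replicates 1, 2 and 3. Each of these Ly6g values lay under 6.79, the rough guide given above for dim signals, so its excess is uncertain. Cxcr2, the neutrophil chemokine receptor, stood at 7.34, 7.56 and 7.72 in the HDM arrays and at 7.46, 7.51 and 7.84 in the PBS arrays.

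Of the pathway lists in this paragraph, only that of interleukin 1 held genes that met this separation, which 0.861% of all genes met. None of 27 genes of Toll-like receptor signalling, of 14 genes of the granulocyte colony-stimulating factor axis or of 14 partners of calprotectin and thrombospondin met it, and their median excess of number 3 was 0.01, 0.17 and 0.25, against -0.01 over all genes. The array numbered 3 was the highest in both groups for 7 of 27, 7 of 14 and 7 of 14 of them, against 19.1% of all genes. Tlr4 stood at 6.31 in HDM replicate 3, against 6.62 and 6.46, and at 6.19 in PBS replicate 3, against 6.29 and 6.27. All these Tlr4 values lay under 6.79, the rough guide for dim signals. Csf3, the ligand of Csf3r, stood at 6.97 in HDM replicate 3, against 6.69 and 6.73, and at 6.96 in PBS replicate 3, against 6.95 and 6.86. Of 19 genes of interleukin 1 processing and receptors, 3 met it, Il1a, Il1r2 and Nlrp3. These were already counted above in the neutrophil or inflammatory list, since 12 genes are in more than 1 list.

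Markers of other cells moved with the arrays numbered 3 too, and their part in the values of the 9 genes was not tested. Of 14 genes of endothelium and stroma, 8 met the separation, and the list's mean signal was 6.63, 6.995 and 7.70 in HDM replicates 1, 2 and 3, against 7.02, 7.81 and 8.10 in PBS replicates 1, 2 and 3. This list was also high in PBS replicate 2, where Il1b stood at 8.02 and Acod1 at 7.56, against 7.29 and 7.46 in PBS replicate 1. Of 10 B cell genes, 2 met it (Cd79a and Ly6d), with list means of 6.78, 7.32 and 7.93 in HDM arrays and 6.92, 7.11 and 7.44 in PBS arrays. Of 18 immediate early and stress genes, 4 met it (Fosl2, Atf3, Ier3 and Klf4), with means of 10.18, 10.14 and 10.64 in HDM arrays and 10.09, 10.41 and 10.53 in PBS arrays.

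The other lists gave 2 of 15 dendritic cell genes, 2 of 18 genes of tissue and alternatively activated macrophages, 1 of 19 alveolar macrophage genes and 1 of 10 platelet genes. The platelet gene was Ppbp, 6.90, 8.96 and 8.77 in HDM replicates 1, 2 and 3 and 7.77, 8.86 and 9.15 in PBS replicates 1, 2 and 3, so it was high in both arrays numbered 2 as well. No gene met it among 14 T cell identity, 14 lung epithelium, 12 mast cell and basophil, 8 eosinophil and 2 erythroid genes. The genes of the proteins sorted against were Itgam, which encodes CD11b, at 7.31, 7.19 and 7.97 in HDM arrays and 7.38, 7.30 and 7.84 in PBS arrays, and Adgre1 at 7.50, 7.02 and 7.95 in HDM arrays and 6.91, 6.96 and 7.44 in PBS arrays. Number 3 exceeded numbers 1 and 2 by 0.61 for Itgam and 0.59 for Adgre1, against 0.02 for Cd4 and -0.13 for Ptprc, which encodes CD45.

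**Figure D4:**
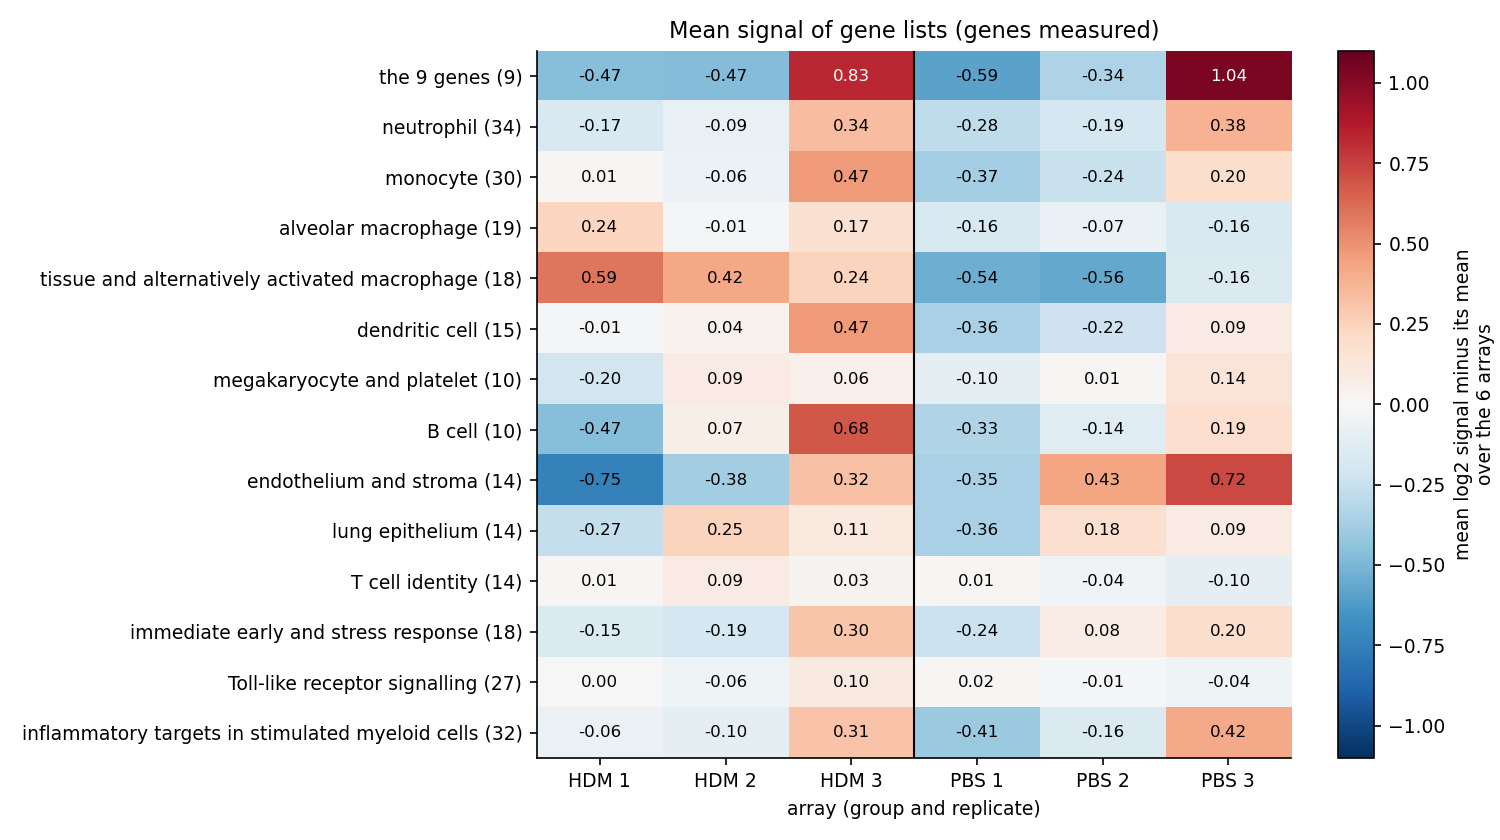
Mean log2 signal of the 9 genes and of 13 gene lists in each array, as the difference from the list's mean over the 6 arrays; the number of measured genes is in parentheses, and red is high. The 9 genes reach 0.83 in HDM replicate 3 and 1.04 in PBS replicate 3; the list of tissue and alternatively activated macrophages is instead high in all 3 HDM arrays, and the T cell list lies between -0.10 and 0.09.

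The lists' calls between the treatments are given beside the 3.95% of all genes called and the median difference of -0.01 over all genes, and no test set a list against the 9 genes or against other genes. Of the neutrophil list, 2 of 34 rose in HDM, Mmp9, a gelatinase (1.06, adjusted p = 0.0041), and Sorl1, a sorting receptor (0.83, adjusted p = 0.0435), and 32 did not pass (list median -0.05). Of the monocyte list, 2 of 30 rose, Plac8 (1.91, adjusted p = 0.00628) and Ccr2, a chemokine receptor that effector T cells also carry (1.85, adjusted p = 0.000178), with a list median of 0.26. Both counts lie near the share of all genes called. The macrophage lists gave 3 of 18 and 3 of 19 genes that rose and 0 that fell, led by Retnla, a protein induced by type 2 cytokines (3.85, adjusted p = 0.0192), Mmp12, the macrophage elastase (2.59, adjusted p = 0.0414), and Chil3, a chitinase-like protein (2.11, adjusted p = 0.0248). Itgax, which encodes an integrin of alveolar macrophages and dendritic cells, also rose (1.06, adjusted p = 0.038). For Sorl1, Retnla and Mmp12, leaving out any of the 5 arrays besides HDM replicate 3 ended the call, with adjusted p up to 0.160, 0.0919 and 0.164. Leaving out any of the 4 arrays numbered 1 or 2 ended it for Chil3 (up to 0.110), and leaving out HDM replicate 2 or any PBS array ended it for Itgax (up to 0.132). Each of these genes passed with the block and without both arrays numbered 3, Retnla at adjusted p of 0.000988 and 0.00015 (limma). With the block, 9 of 18 genes of tissue and alternatively activated macrophages were higher in HDM and 1 was lower. Of 19 alveolar macrophage genes, 5 were higher and 1 was lower, against 12.0% of all genes called with the block.

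The pathway lists are again read beside the 3.95% of all genes called, and the counts of 2 of 27 and 1 of 14 below lie near it. Among inflammatory targets 3 of 32 rose, led by the chemokines Ccl9 (1.63, adjusted p = 0.0434) and Ccl6 (1.61, adjusted p = 0.00593), and 29 did not pass (median 0.05). Of the interleukin 1 list 3 of 19 rose, led by Il1r1, the receptor for interleukin 1 (1.16, adjusted p = 0.0111), and Casp1, the protease that matures interleukin 1 beta (0.86, adjusted p = 0.0331). Of Toll-like receptor signalling, Ly96, the partner of Tlr4, rose (0.77, adjusted p = 0.0265) and Lbp, the lipopolysaccharide-binding protein, fell by 0.65 (adjusted p = 0.0126), while 25 of 27 did not pass. Jak1, a kinase of many cytokine receptors, fell by 0.29 in the granulocyte colony-stimulating factor list (adjusted p = 0.0299), where 13 of 14 did not pass, and 2 of 14 partner genes rose, the integrin chain gene Itgav (0.95, adjusted p = 0.0136) and the cytokine gene Tgfb1 (0.49, adjusted p = 0.0414).

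Calls among these were fragile to leaving out 1 array. Every called gene named in this paragraph still passed with the block and without both arrays numbered 3 (Ccl9 at adjusted p of 0.0283 and 2.8e-05, limma). Ccl9, Ly96, Casp1, Jak1 and Tgfb1 lost theirs when any of at least 4 single arrays was left out (adjusted p up to 0.191, 0.105, 0.129, 0.140 and 0.141). Lbp lost it without HDM replicate 2 or either of PBS replicates 1 and 2 (up to 0.0728), Itgav without PBS replicate 1 or 2 (up to 0.0626) and Il1r1 without HDM replicate 2 (0.0602). Of the other lists, 1 of 15 dendritic cell genes rose, Ccl17 (1.26), 1 of 8 eosinophil genes, Ccr3 (1.90), and 1 of 14 lung epithelium genes, Cdh1 (0.82), whose call ended without any 1 of the 5 arrays besides HDM replicate 3 (adjusted p up to 0.113). In the T cell identity list, Zap70 rose (0.48) and Trat1 fell by 0.59, and Zap70 did not pass without any 1 of those 5 arrays (up to 0.203). Platelet, B cell, mast cell, endothelial and stromal, erythroid and immediate early genes gave 0 calls with limma, of which platelet genes had 1 with an unadjusted p below 0.05 and immediate early genes 3, and with the block they gave 1 of 10, 0 of 10, 1 of 12, 6 of 14, 0 of 2 and 4 of 18 calls, against 12.0% of all genes.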

How the data were processed

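Gene expression was measured on 6 arrays, 3 of lung CD4 T cells from HDM-treated mice and 3 from PBS-treated mice. The deposited values are log2 signals per probe set that the authors made with RMA, per the submitters' processing notes, which give no version; RMA equalises array distributions, so a change in total RNA cannot be seen. The number of arrays limits the precision.

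Of 33960 probe sets, 23521 had exactly 1 gene symbol in the platform annotation, 1814 several and 8625 none. They gave 22180 genes, each with its brightest probe set by mean over the 6 arrays. Differences were HDM minus PBS, fitted over all genes in R 4.3.3 with limma 3.58.1 (intensity trend), two-sided, with Benjamini-Hochberg adjustment over all genes, a threshold of 0.05, and 95% intervals from limma's moderated spread. The fit was run on simulated data with independent noise in each array. That simulation held no shared effect of the replicate number, so it cannot show how the fit behaves under one. No filter on dim genes was used.

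The number contrast is a description with no test: each number's mean over its HDM and PBS array, then number 3 minus the mean of numbers 1 and 2. After subtracting each group's mean, arrays sharing a number correlated over all genes at 0.43, 0.17 and 0.53 for numbers 1, 2 and 3. All were over the 0.1 set for pairing, so block values are given too. That subtraction ties the arrays of a group to each other, so a shift of the arrays numbered 3 alone can raise r for numbers 1 and 2. No r between arrays of different numbers is given, so these values cannot show that the numbers are pairs. The block rests on the data, not the labels. The 19 lists held 337 genes, of which 312 were measured and no member; the others were not analysed here. Members, lists and tests were chosen with earlier results of these data known. Genes named were all 9 members, the 2 called genes of largest change per list (or the largest where none was called, not all printed), the sort genes and the 8 most like the members (range of at least 1 on the log2 scale, no predicted genes, small RNAs, receptor segments or olfactory receptors). Alternatives were dim-gene filters, other normalizations and variance models, array weights, probe set choices, the block, thresholds and left-out arrays.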

Additional observations from a re-analysis of the deposited data

How the results depend on the processing

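The count of 0 called among the 9 genes was the same under every alternative run, thresholds of 0.1 and 0.01 included, with 0 to 2 genes at an unadjusted p below 0.05. The number of all genes called (876) moved to 1837 with array weights, to 2576 when both arrays numbered 3 were dropped and to 2653 with the replicate block, and ranged from 218 to 1567 when 1 array was left out. The 26 called genes of the lists became 42, 75 and 77 under those 3 settings and ranged from 9 to 38 without 1 array. The difference of Thbs1 changed sign with repeated quantile normalization (0.0066), array weights (0.11) and without both arrays numbered 3 (0.19), and that of S100a9 with array weights (0.077) and without both arrays numbered 3 (0.17); none of these values passed and the cause was not tested. With single arrays dropped, differences spanned -1.03 to 0.76 for Il1b, -0.93 to 0.57 for Acod1, -0.62 to 0.44 for Cd14, -0.93 to 1.11 for Thbs1, -0.68 to 0.0083 for S100a8, -0.16 to 0.20 for S100a9 and -0.39 to 0.22 for Csf3r, and kept its sign for Tlr2 (-0.24 to -0.03) and Lyz2 (0.31 to 0.62). The lowest adjusted p of any member was 0.0709, for Lyz2 with the replicate block, which changed no member's call. The number contrast stayed positive for all 9 genes under the scalings tried and in each treatment alone. A filter at the median of all genes left out S100a8 and S100a9.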

Other observations

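Other genes showed the contrast between numbers in either direction, and these were picked for its size. Il12rb2, a chain of the interleukin 12 receptor, stood at 9.44 in HDM replicate 3, against 7.21 and 7.10 in HDM replicates 1 and 2, and at 10.89 in PBS replicate 3, against 8.55 and 8.83 in PBS replicates 1 and 2. Adgre4, an adhesion receptor of myeloid cells, stood at 7.88 in HDM replicate 3, against 5.75 and 5.61, and at 7.58 in PBS replicate 3, against 5.84 and 6.13. Bgn, the matrix proteoglycan biglycan, stood at 9.83 in HDM replicate 3, against 7.16 and 7.73, and at 10.27 in PBS replicate 3, against 8.10 and 9.28.

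A few genes had the opposite order, again picked for its size. Retnla stood at 7.81 in HDM replicate 3, against 9.67 and 10.74 in HDM replicates 1 and 2, and at 4.9995 in PBS replicate 3, against 5.84 and 5.81. Rnase2a stood at 6.90 in HDM replicate 3, against 10.04 and 9.84, and at 5.03 in PBS replicate 3, against 6.19 and 5.81. Arg1, the enzyme arginase, stood at 6.82 in HDM replicate 3, against 9.03 and 8.74, and at 6.47 in PBS replicate 3, against 6.96 and 6.49, where PBS replicates 2 and 3 were level. All PBS values of Retnla and Rnase2a lay under 6.79, the rough guide for dim signals, as did Arg1 in PBS replicates 2 and 3. The order within PBS is thus uncertain for these genes. The 18 genes of tissue and alternatively activated macrophages as a list did not have this order: their median excess of number 3 was 0.24, and the array numbered 3 was the highest in both groups for 10 of them. HDM replicate 3 thus had the highest HDM signals of Il1b, Acod1, Thbs1 and Cd14 and the lowest HDM signals of Retnla, Rnase2a and Arg1.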
